A study of Mus musculus with 20 samples.

Results

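The 8 G protein-coupled receptors that steer neutrophils between the bone marrow and inflamed tissue were followed at the level of their transcripts: Cxcr2, Cxcr4, Ccr1, Fpr1, Fpr2, C5ar1, Ltb4r1 and Ptafr. They were taken by gene symbol, and all 8 were among the 24421 genes listed in each library and among the 14030 genes that passed the filter on low counts. The material was neutrophils isolated by negative magnetic selection from the bone marrow of female mice and sequenced as poly(A) RNA, with 5 libraries in each of 4 groups (20 in all). WT mice were purchased C57BL/6J animals. Bmal1 Mye-/- mice (KO below) carry floxed Bmal1 alleles and a Cre recombinase inserted at Lyz2 (LysMCre), so Bmal1, the clock transcription factor, is removed in myeloid cells generally and not in neutrophils alone. Because the KO colony was bred in house, the genotypes were not littermates. Each genotype was left untreated or received imiquimod (IMQ), a TLR7/8 agonist, as a 5% cream on the ears 3 times a week for 6 weeks from 8 to 10 weeks of age, a regimen that induces lupus-like disease. All mice were killed in the morning, at zeitgeber time 1 to 4.

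Neutrophils are held in the marrow by CXCL12 acting on CXCR4 and are drawn out by CXCR2 ligands such as CXCL1 and CXCL2, so that the balance of these receptors is a textbook account of marrow retention and egress. The remaining receptors act mainly once cells are released. CCR1 binds CC chemokines such as CCL3 and CCL6, FPR1 and FPR2 bind formylated peptides, C5AR1 binds the complement fragment C5a, LTB4R1 (BLT1) is the high-affinity leukotriene B4 receptor, and PTAFR binds platelet-activating factor. All signal through heterotrimeric G proteins, largely of the Gi class, and are switched off by receptor kinases, arrestins and RGS proteins.

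The genes are protein coding and lie on 6 chromosomes, given here in GRCm38 (mm10) from GENCODE vM21: Cxcr2 at chr1:74153989-74161246 (+ strand), Cxcr4 at chr1:128588199-128592293 (- strand), Ccr1 at chr9:123962124-123968692 (-), Fpr1 at chr17:17876471-17883940 (-), Fpr2 at chr17:17887824-17893952 (+), C5ar1 at chr7:16246743-16259540 (-), Ltb4r1 at chr14:55765962-55768494 (+) and Ptafr at chr4:132564067-132582683 (+). Counts were summed over each gene's exons, so the values below refer to whole transcripts. Upstream sequence is shown for the pair that gives the retention and egress balance, for Ccr1, and for Ltb4r1, whose levels ran apart from the rest. Each line holds the 250 bases before the RefSeq transcription start (GRCm38.p6), 5′ to 3′ on the gene's strand, with the core-promoter letters TATAAA and the GC box GGGCGG as matches on either strand in capitals.
Cxcr4, chr1:128592300-128592549, - strand: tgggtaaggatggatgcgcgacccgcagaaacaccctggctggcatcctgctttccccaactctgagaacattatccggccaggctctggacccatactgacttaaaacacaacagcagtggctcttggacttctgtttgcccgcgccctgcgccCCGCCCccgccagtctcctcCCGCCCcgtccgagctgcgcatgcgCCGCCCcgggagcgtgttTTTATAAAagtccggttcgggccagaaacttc
Cxcr2, chr1:74153744-74153993, + strand: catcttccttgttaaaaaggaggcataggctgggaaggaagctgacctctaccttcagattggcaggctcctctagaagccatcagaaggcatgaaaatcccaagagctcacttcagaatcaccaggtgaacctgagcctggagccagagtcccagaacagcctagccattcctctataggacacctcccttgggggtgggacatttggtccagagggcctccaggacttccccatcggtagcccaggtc
Ccr1, chr9:123968693-123968942, - strand: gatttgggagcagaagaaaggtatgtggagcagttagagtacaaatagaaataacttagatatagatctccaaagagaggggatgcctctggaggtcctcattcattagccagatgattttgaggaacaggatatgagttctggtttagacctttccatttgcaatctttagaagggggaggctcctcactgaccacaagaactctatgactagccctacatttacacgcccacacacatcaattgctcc
Ltb4r1, chr14:55765712-55765961, + strand: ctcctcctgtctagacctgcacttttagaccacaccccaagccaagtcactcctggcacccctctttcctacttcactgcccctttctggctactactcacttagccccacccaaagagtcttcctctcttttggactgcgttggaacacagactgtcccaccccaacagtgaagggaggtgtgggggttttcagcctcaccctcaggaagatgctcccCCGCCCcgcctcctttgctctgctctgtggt
The Cxcr4 stretch held 3 GC boxes and overlapping TATAAA matches 32 and 30 bases before the start, the Ltb4r1 stretch held 1 GC box, and the other pair held neither. The E-box CACGTG, the canonical letters bound by BMAL1 with CLOCK, was in 0 of the 8 receptor windows of 300 bases (250 before to 50 after the start), against 7.15% of 32851 windows of that length. The C/EBP letters TTGCNNAA were in 0 of 8 (10.8% of all windows), the PU.1 letters GAGGAAGT in 1 of 8, Ltb4r1 (3.20%), TATAAA in 3 of 8 (13.6%) and GGGCGG in 3 of 8 (35.7%), both strands being read. A match is only a match of letters in this window.

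Depth was ample for these genes. Library totals ran from 30782166 to 92613500 reads on genes, and the receptor with the fewest reads in any library, Ptafr, still had 1913. Levels are given as CPM, the count scaled to a common library size with TMM factors. The Lyz2 check of the labels was clear: Lyz2 was at 2465 to 12033 CPM in the WT libraries and at 58.8 to 177 CPM in the KO libraries. Arntl, the gene symbol of Bmal1, was at or below 1.87 CPM in all 20 libraries, and its KO libraries overlapped the WT ones (0.468 to 1.10 against 0.895 to 1.71 CPM untreated). The count covers the whole gene and not the floxed exon alone, and the reason for the overlap was not tested. Neutrophil genes dominated (S100a8 averaged 24480 CPM and S100a9 33941 CPM), whereas B and T cell markers were low, from Ms4a1 and Cd3e (means of 0.196 and 0.146 CPM) to Cd79b, Cd79a and Cd3d (2.86, 5.29 and 7.58 CPM) and the NK gene Nkg7 (7.83 CPM). The 3 libraries WT IMQ 3, KO IMQ 1 and KO IMQ 5 stood apart in receptor levels. They also had the lowest sums of 9 neutrophil genes, at 74559, 53130 and 79110 CPM, against 101730 to 125250 CPM elsewhere. Their other markers are given with the results. In bulk RNA, fewer cells of a type and less RNA per cell cannot be told apart.

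Compared per kilobase of exon (RPKM), untreated WT neutrophils carried most Cxcr2 (461 ± 104 RPKM, SD, n = 5), followed by Fpr2 (421 ± 32.8), Ltb4r1 (297 ± 12.2), Fpr1 (276 ± 38.5), Cxcr4 (266 ± 19.0), C5ar1 (233 ± 29.6), Ccr1 (167 ± 28.1) and Ptafr (25.3 ± 5.05). Of the neighbours in that order, Cxcr2 exceeded Fpr2 in only 3 of 5 libraries, Ltb4r1 exceeded Fpr1 in 3 of 5 and Fpr1 exceeded Cxcr4 in 3 of 5, so those neighbours did not differ beyond their spread. C5ar1 lay above Ccr1, and Ccr1 above Ptafr, in 5 of 5 libraries. Untreated KO neutrophils kept Cxcr2 (548 ± 37.2 RPKM) and Fpr2 (421 ± 26.6) at the top, with Cxcr2 above Fpr2 in 5 of 5. After IMQ, Fpr2 held the first place in both genotypes (541 ± 150 RPKM in WT and 402 ± 141 in KO), although it exceeded the next receptor in only 3 of 5 libraries of each. In IMQ-treated KO the second place went to Ltb4r1 (328 ± 93.3 RPKM) and Cxcr2 came next (295 ± 152), and Ltb4r1 exceeded Cxcr2 in 3 of 5. Ptafr was the lowest of the 8 in every group.

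**Figure D1:**
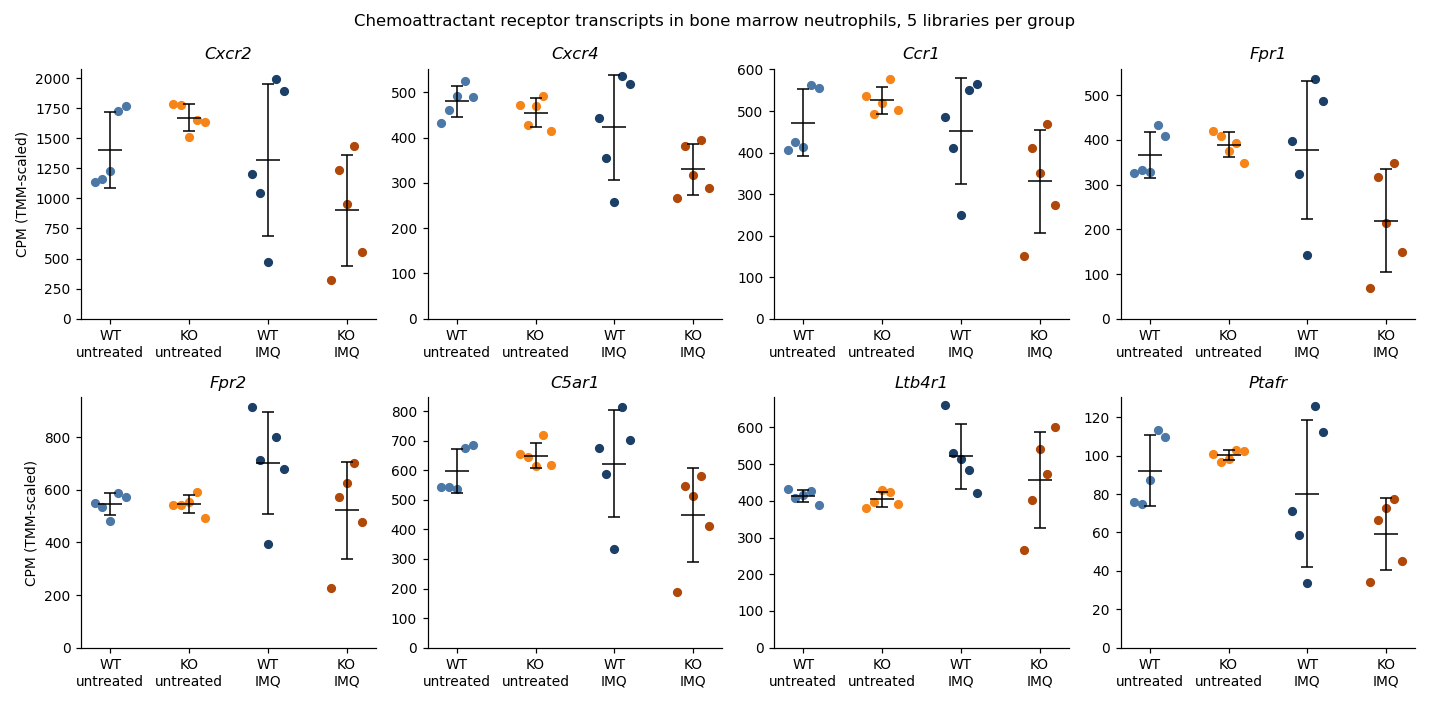
Transcript level (CPM, TMM-scaled, linear axis from 0) of each receptor in the 20 libraries, 5 per group, with the mean and SD of the group in black. Untreated groups are tight, IMQ-treated groups are wide, and KO IMQ lies below KO untreated in all libraries for 6 receptors but not for Fpr2 or Ltb4r1.

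The first comparison set the genotypes against each other without IMQ. They differ in Lyz2 and in colony as well as in the Bmal1 alleles, so it does not isolate loss of Bmal1. In untreated mice, 0 of 8 were called, meaning an adjusted p under 0.05 by edgeR with Benjamini-Hochberg correction over the 14030 genes, beside 0.207% of all genes tested. At an unadjusted p under 0.05 the count was also 0 of 8, beside 2.19% of genes, and DESeq2 called 0. No receptor had groups that did not overlap, beside 1.52% of genes. The log2 fold changes ran from -0.08 to 0.25 with SEs of 0.16 to 0.35 and a median of 0.11, beside -0.0039 for all genes. Cxcr2 was at 1135, 1165, 1228, 1728 and 1771 CPM in the WT libraries and at 1785, 1775, 1511, 1648 and 1633 CPM in the KO libraries. The WT values fell into a lower set of 3 and an upper pair, and only the upper pair reached the KO range, yet the groups overlapped and the log2 fold change was 0.25 ± 0.35 (SE, adjusted p = 1.00 by edgeR). Cxcr4 differed even less, from 433 to 524 CPM in WT and 414 to 491 CPM in KO. Ptafr was unusually even among KO libraries, 96.7 to 103 CPM, against 74.6 to 113 CPM in WT.

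In the edgeR fit of all libraries, IMQ treatment of KO mice was the only comparison with called receptors. Of the 8 receptors, Cxcr4 and Ccr1 fell and 0 rose, so that 2 were called. Of all genes, 9.04% were called lower, 14.4% higher and 23.5% in either direction. The count of 2 of 8 is close to that last share, so by itself it does not set the receptors apart from other genes. The KO IMQ libraries lay wholly below the untreated KO libraries for 6 of 8 (Cxcr2, Cxcr4, Ccr1, Fpr1, C5ar1 and Ptafr), beside 20.1% of all genes with groups that did not overlap. The median log2 fold change of the 8 was -0.60, beside 0.02 for all genes. At an unadjusted p under 0.05, 6 of 8 passed, beside 39.3% of genes. The 20.1% and 39.3% count changes in both directions. The receptors were chosen with earlier results of these data known, and most moved together from library to library. Their counts beside these shares are therefore a description and not a test of the 8 as a set.

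Cxcr4, the retention receptor, was at 473, 427, 470, 491 and 414 CPM in the untreated KO libraries and at 268, 381, 318, 395 and 289 CPM after IMQ. Its highest treated library was below its lowest untreated one, and its log2 level fell by 0.46 ± 0.16 (SE, adjusted p = 0.0424 by edgeR). Ccr1 was at 536, 492, 520, 577 and 502 CPM untreated and at 150, 410, 352, 468 and 274 CPM after IMQ. These groups were again separate, with KO IMQ 1 by far the lowest, and the log2 level fell by 0.67 ± 0.24 (SE, adjusted p = 0.0494 by edgeR).

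Cxcr2, the egress receptor, had the largest fold change of the 8 in this fit. Against the untreated KO values above, the IMQ-treated KO libraries were at 320, 1238, 954, 1437 and 551 CPM. Every treated library was below every untreated one, but they differed among themselves more than 4-fold, and the log2 fold change of -0.89 ± 0.35 (SE) did not pass (adjusted p = 0.0712 by edgeR). Ptafr (-0.76 ± 0.27, adjusted p = 0.0517), Fpr1 (-0.83 ± 0.34, adjusted p = 0.0771) and C5ar1 (-0.53 ± 0.24, adjusted p = 0.103) likewise missed the threshold of that test. Fpr1 spanned 69.2 to 348 CPM after IMQ against 349 to 419 CPM untreated, and C5ar1 spanned 190 to 581 against 614 to 719 CPM.

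Fpr2 and Ltb4r1 did not share that pattern. Fpr2 was at 229, 572, 625, 703 and 479 CPM after IMQ and 494 to 591 CPM untreated in KO, with a log2 fold change of -0.06 ± 0.23 (SE, adjusted p = 0.851 by edgeR). Ltb4r1 was at 380, 396, 428, 423 and 392 CPM untreated and at 267, 402, 542, 473 and 602 CPM after IMQ. Its treated libraries lay above all untreated ones in 3 cases and below them in 1, with a log2 fold change of 0.18 ± 0.16 (SE, adjusted p = 0.416 by edgeR).

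The 2 calls rested on thin margins. With any 1 of 8 libraries left out (each of the 5 untreated KO libraries, or KO IMQ 1, 3 or 5), 0 of 8 receptors were called by edgeR, and the adjusted p of Cxcr4 ranged from 0.0342 to 0.113 over all 10 such fits. Without KO IMQ 4 the count rose to 5 (Cxcr2, Cxcr4, Ccr1, Fpr1 and Ptafr), and without KO IMQ 2 it stayed at 2. In this comparison replicates with the same number deviated together, and with the replicate number as a block 3 were called (Cxcr4, Ccr1 and Ptafr, the last at adjusted p = 0.0403 by edgeR). Cxcr2, Cxcr4, Ccr1, Fpr1, C5ar1 and Ptafr stayed below 0 and Ltb4r1 above 0 under all 21 alternative settings run for this comparison. Fpr2 changed sign in 3 of them. For the receptors that stayed below 0, every treated library already lay below every untreated one. Leaving out libraries could therefore hardly turn their sign, so its constancy is not separate evidence of a fall.

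**Figure D2:**
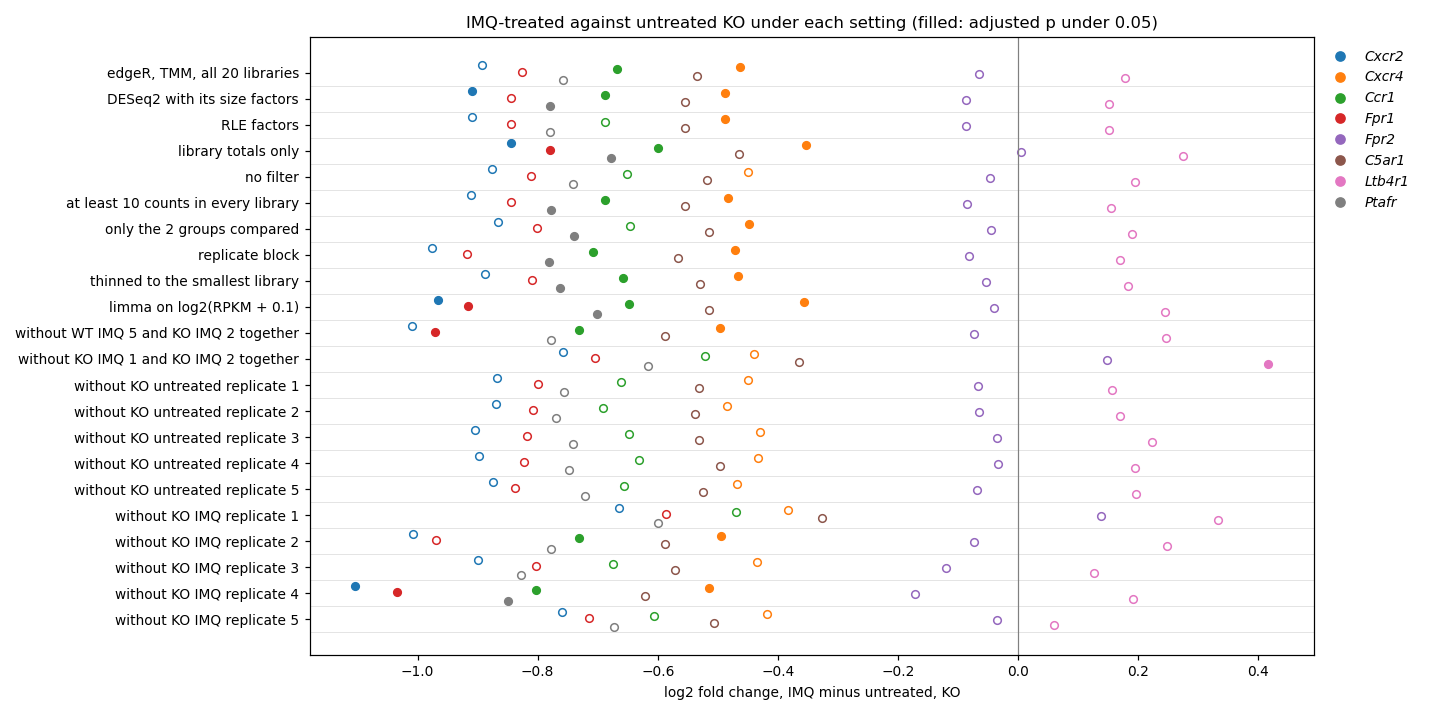
Log2 fold change of each receptor (x axis) between IMQ-treated and untreated KO under the edgeR fit and 21 alternatives (rows); filled points have an adjusted p under 0.05. The 6 receptors other than Fpr2 and Ltb4r1 stay left of 0 throughout, and the filled points move between rows, with none in 9 of the 22 rows.

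Monocyte markers moved in the same comparison. Of 8 monocyte genes, 6 were called higher and 0 lower in IMQ-treated against untreated KO. Over all genes these shares were 14.4% and 9.04%. The summed level of the 8 was 3290 CPM in KO IMQ 1 and 1283 CPM in KO IMQ 2. It was 234 to 587 CPM in the other treated KO libraries and 408 to 720 in WT IMQ. Untreated libraries had 411 to 632 in KO and 350 to 527 in WT. Without KO IMQ 1 and KO IMQ 2, an alternative chosen after seeing these sums, Cxcr4 (-0.44, adjusted p = 0.0913) and Ccr1 (-0.52, adjusted p = 0.0959) were no longer called by edgeR, and Ltb4r1 was the 1 receptor called, higher at a log2 fold change of 0.42 (adjusted p = 0.0231). The part of monocytes in the receptor levels was not tested.

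In WT mice the same treatment moved no receptor past the threshold. By edgeR 0 of 8 were called, beside 3.95% of all genes, DESeq2 called 0, and 1 of 8 (Ltb4r1) had an unadjusted p under 0.05, beside 22.3% of genes. No receptor had separate groups, beside 6.43% of genes. The median log2 fold change was -0.0077, beside 0.03 for all genes. WT IMQ 5 lay at -37.1 on the first principal component of all libraries, inside the untreated WT range of -40.1 to -14.5. The other WT IMQ libraries lay at 19.5 to 92.5. Without WT IMQ 5, 1989 genes in place of 554 were called and still 0 of 8 receptors, so the share of 3.95% depends on that library. Ltb4r1 was at 431, 408, 415, 425 and 388 CPM untreated and at 662, 529, 513, 483 and 420 CPM after IMQ. In 4 of 5 cases the treated library lay above every untreated one, and the log2 fold change was 0.33 ± 0.16 (SE, adjusted p = 0.222 by edgeR). Fpr2 showed the same arrangement, 480 to 589 CPM untreated and 394, 680, 712, 801 and 917 CPM after IMQ, with 4 of 5 above all untreated libraries and a log2 fold change of 0.36 ± 0.23 (SE, adjusted p = 0.369 by edgeR).

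The classical egress and retention receptors did not follow in WT. Cxcr2 was at 1201, 1046, 470, 1995 and 1888 CPM after IMQ, with 2 libraries below and 2 above the whole untreated WT range, and Cxcr4 was at 443, 356, 259, 536 and 518 CPM. Their log2 fold changes were -0.09 ± 0.35 (SE, adjusted p = 0.913) and -0.18 ± 0.16 (SE, adjusted p = 0.530 by edgeR). In both WT groups the libraries numbered 4 and 5 had the highest Cxcr2, Fpr1, C5ar1 and Ptafr. No label assigns these numbers to a day or a run.

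Between IMQ-treated genotypes all 8 log2 fold changes were below 0 (KO minus WT, -0.78 to -0.19, median -0.44, beside 0.03 for all genes), but 0 of 8 were called by edgeR and 0 by DESeq2, beside 0.292% of all genes. Cxcr4 (-0.36 ± 0.16, SE) and Fpr1 (-0.78 ± 0.34, SE) had an unadjusted p under 0.05, beside 19.9% of genes, with adjusted p = 0.243 and 0.235 by edgeR. The groups overlapped for all 8, beside 1.07% of genes with separate groups. A single library decided this result: without WT IMQ 3, the lowest WT library, 3 were called lower in KO (Cxcr4, Fpr1 and C5ar1, adjusted p = 0.0226, 0.0318 and 0.0475 by edgeR), and the number of all genes called went from 41 to 3129. Under scaling by library totals alone, which moved the median gene from 0.03 to 0.23, the 8 stayed below 0, and the sign of Ltb4r1 turned only without KO IMQ 1 and KO IMQ 2 (0.06).

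Whether IMQ acted differently in the genotypes was tested directly by the interaction. All 8 interaction terms were below 0 (KO effect minus WT effect, -0.87 to -0.16 on the log2 scale), and 0 of 8 were called by edgeR or DESeq2, beside 0 of all genes. At an unadjusted p under 0.05 there were also 0 of 8, beside 5.14% of genes, and the smallest adjusted p was 0.640. The call of Cxcr4 and Ccr1 in KO and not in WT is therefore not shown to be a difference between genotypes.

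**Figure D3:**
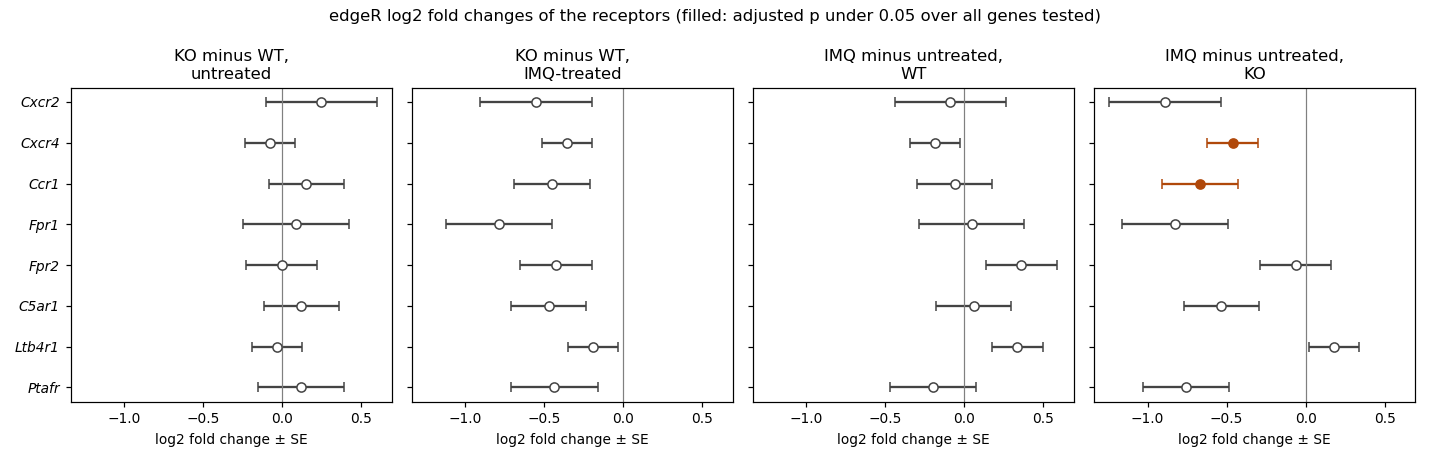
Log2 fold change with its SE (x axis) for each receptor in the 4 comparisons, filled where the adjusted p was under 0.05. Points scatter around 0 in untreated mice and in WT after IMQ, all 8 lie left of 0 between IMQ-treated genotypes, and Cxcr4 and Ccr1 are the filled points in KO after IMQ.

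Most of the receptors rose and fell together from library to library. Over the 20 libraries the 21 pairs without Ltb4r1 had Pearson correlations of log2 CPM from 0.57 to 0.98 (median 0.90), and still 0.71 to 0.98 once group means were removed. The 7 pairs with Ltb4r1 ran from -0.10 to 0.65, the highest being with Fpr2. These correlations are descriptions over libraries that share depth scaling and group structure. The lowest Cxcr2 values, in KO IMQ 1 (320 CPM), WT IMQ 3 (470) and KO IMQ 5 (551), coincided with the lowest Fpr1 (69.2, 143 and 149 CPM) and the lowest Cxcr4 (268, 259 and 289 CPM).

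Those libraries were also low in late neutrophil genes. The summed level of 8 such genes (Mmp8, Mmp9, Retnlg, Il1b, Cxcl2, Ccl6, Stfa2l1 and Csf3r) was 4981.5 CPM in KO IMQ 1, 8029 in WT IMQ 3 and 10589 in KO IMQ 5, against 14478 to 21922 in the other KO IMQ libraries, 22816 to 29671 in the other WT IMQ libraries and 23498 to 30448 in the untreated groups. Mmp8, Mmp9, Retnlg and Csf3r also belong to the neutrophil genes summed earlier, so the low sums are not separate observations. Csf3r and Ccl6 are counted again among the partner genes below. In IMQ-treated against untreated KO, 3 of the 8 late genes were called lower (Il1b, Ccl6 and Csf3r) and 1 higher (Stfa2l1). Over all genes 9.04% were called lower and 14.4% higher. The 7 secondary granule genes summed to 49891 CPM in KO IMQ 1, 65725 in WT IMQ 3 and 75694 in KO IMQ 5 against 67132 to 85206 in the untreated groups, and 1 of 7 was called higher (Orm1). The precursor sum of 8 genes was highest in KO IMQ 1 (2069 CPM, against 337 to 1428 in untreated WT, 511 to 1189 in untreated KO, 230 to 1021 in WT IMQ and 479 to 1427 elsewhere in KO IMQ), with 0 of 8 called. The part of cell stage in the receptor levels was not tested.

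**Figure D4:**
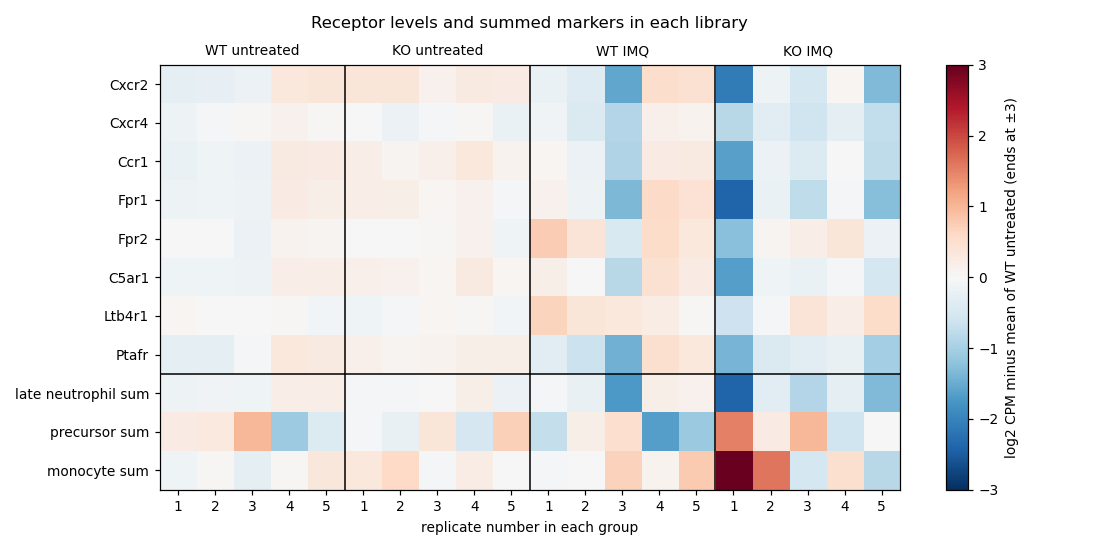
Log2 CPM of each receptor and of 3 summed marker lists in every library, relative to the mean of untreated WT (colour scale from -3 to 3; columns are libraries, numbered by replicate). The blue columns of WT IMQ 3, KO IMQ 1 and KO IMQ 5 run through all receptors except Ltb4r1 in the first and last, and through the late neutrophil sum.

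Ratios taken within a library leave out its scaling. The Cxcr2 to Cxcr4 ratio of CPM was 2.91 ± 0.51 in untreated WT (SD, n = 5) and 3.69 ± 0.39 in untreated KO, with ranges of 2.497 to 3.62 and 3.22 to 4.15 that overlapped. After IMQ it was 2.97 ± 0.78 in WT, from 1.82 to 3.72, and 2.60 ± 1.01 in KO, from 1.197 to 3.63. In the treated KO group the values were 1.197, 3.24, 3.00, 3.63 and 1.91. KO IMQ 1, 3 and 5 lay below the whole untreated KO range, and KO IMQ 2 and 4 lay inside it. Against untreated WT, KO IMQ 1 and 5 lay below the range, KO IMQ 2 and 3 inside it and KO IMQ 4 just above it. The ratio is a description and was not tested.

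Ratios involving Fpr2 and Ltb4r1, picked after their levels were seen, were also described without a test. Fpr2 to Fpr1, neighbouring genes on chromosome 17 for receptors of formylated peptides, was 1.36 to 1.69 in untreated WT and 1.30 to 1.501 in untreated KO. After IMQ it ran from 1.40 to 2.75 in WT and from 1.81 to 3.30 in KO, where all 5 libraries exceeded all 10 untreated ones. Fpr2 overlaps the annotated gene Fpr3, which was itself at 0 to 0.197 CPM, and reads from near-identical Fpr copies may be split or dropped in counting. The Ltb4r1 to Cxcr2 ratio was 0.219 to 0.380 in untreated WT and 0.213 to 0.283 in untreated KO, and reached 1.09 in both WT IMQ 3 and KO IMQ 5.

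**Figure D5:**
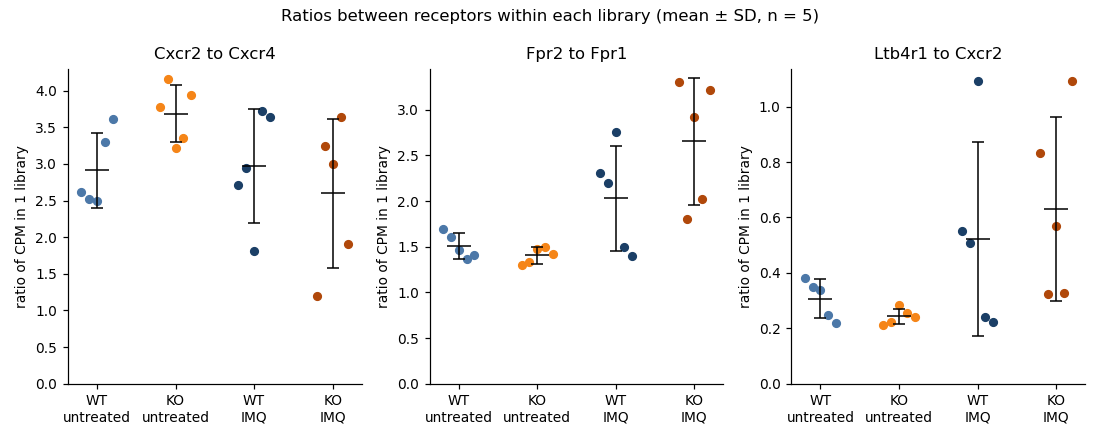
Ratio of CPM between pairs of receptors within each library (y axis from 0), 5 libraries per group with the mean and SD. Cxcr2 to Cxcr4 is lowest in KO IMQ 1 at 1.197, and Fpr2 to Fpr1 lies above the untreated range in all 5 KO IMQ libraries.

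The genes whose levels ran closest to each receptor over the 20 libraries, among 10859 others with a mean of at least 1 CPM, were ranked by Pearson correlation of log2 CPM. Cxcr2 ran with Entpd1 (r = 0.99) and Fcgr3 (0.98), and Cxcr4 with Hacd4 (0.97), Far1 (0.97) and Tmem59 (0.97). Ccr1 and Fpr1 shared Tbc1d10c as the closest gene (0.99 and 0.99), followed by Nedd9 (0.99) and Adam8 (0.98) for Ccr1 and by Pi16 (0.98) and Mmp9 (0.98), the gelatinase of the tertiary granules, for Fpr1. C5ar1 ran with Grina and Max (0.99 each), and Ptafr with Tnfrsf1a, Ubap1 and Rassf3 (0.98 each). Fpr2 ran with Gnai2, which encodes the Gi alpha subunit (0.97), Pde1b (0.96) and 1700047M11Rik (0.96). Ltb4r1 ran with Def6 (0.97), Lpcat4 (0.96) and Actr10 (0.94). With group means subtracted, at least 1 of the 3 closest genes stayed among the closest 3 for each receptor.

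Partners of these receptors were read from gene lists in the same fit. Their counts are to be read beside 23.5% of all genes called in KO after IMQ and 3.95% in WT. The lists were not tested against all genes. Among ligands and ligand-synthesis genes, 22 of 24 passed the filter. In KO after IMQ 3 were called higher and 4 lower, and in WT 1 higher and 3 lower. Cxcl12, the ligand of Cxcr4, was at 72.2, 165, 166, 138 and 69.5 CPM in untreated WT and at 38.3, 15.5, 19.0, 18.1 and 88.6 CPM in WT IMQ. In KO it was at 256, 202, 59.6, 114 and 153 CPM untreated and 63.8, 50.8, 41.0, 26.5 and 19.96 CPM after IMQ. The groups nearly separated in each genotype, with WT IMQ 5 high in the first and KO untreated 3 low in the second, and the log2 level fell by 1.77 ± 0.48 in WT (SE, adjusted p = 0.0469) and fell by 1.96 ± 0.49 in KO (SE, adjusted p = 0.0117 by edgeR). The WT call was lost in 13 of 20 alternative settings and the KO call in 0 of 21. Ccl3 and Ccl4, CC chemokines, fell in both genotypes: Ccl4 had log2 fold changes of -2.01 ± 0.45 in WT and -2.35 ± 0.46 in KO, and Ccl3 of -1.76 ± 0.45 and -1.36 ± 0.45 (SE, adjusted p from 0.00539 to 0.0366 by edgeR). The Ccl3 call was lost in 10 of 20 alternative settings in WT and 10 of 21 in KO, and the Ccl4 call in 7 of 20 and 0 of 21. Ccl6, a ligand of Ccr1, averaged 1481 ± 251 CPM in untreated KO and 477 ± 286 CPM after IMQ (SD, n = 5), and its log2 level fell by 1.64 ± 0.46 (SE, adjusted p = 0.0198 by edgeR). Saa3, an acute-phase protein and FPR2 ligand, rose from 0.0816 ± 0.0203 to 4.33 ± 3.37 CPM in WT and from 0.0774 ± 0.0543 to 4.76 ± 7.19 CPM in KO (mean ± SD, n = 5, adjusted p = 0.0141 and 0.00526 by edgeR), and in KO the SD after IMQ exceeded the mean. Pafah2, which degrades platelet-activating factor, rose in KO by 0.82 ± 0.26 on the log2 scale (adjusted p = 0.0319 by edgeR).

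Among 31 other chemoattractant and trafficking receptors, 23 passed the filter. In KO after IMQ 3 were called higher and 7 lower, and in WT 1 higher (Cxcr5) and 1 lower (Ccr10). S1pr1, the sphingosine-1-phosphate receptor known for lymphocyte egress, was at 11.01, 7.48, 9.69, 10.6 and 8.08 CPM in untreated KO and at 1.30, 2.60, 1.90, 4.18 and 3.09 CPM after IMQ. The groups were far apart, its log2 level fell by 1.84 ± 0.30 (SE, adjusted p = 0.00459 by edgeR), and the call held in 21 of 21 alternative settings. In WT S1pr1 was at 7.15 to 10.8 CPM untreated and 4.23 to 12.0 CPM after IMQ (-0.53 ± 0.29, adjusted p = 0.295), and its interaction term was -1.31 ± 0.41 (SE, adjusted p = 0.640 by edgeR). Ccrl2, a non-signalling chemerin receptor, fell by 1.83 ± 0.41 in KO, and Ackr4, a scavenger of CC chemokines, fell by 0.86 ± 0.20 (adjusted p = 0.00802 and 0.00876 by edgeR). Ccr10 fell by 1.84 ± 0.40 in WT and fell by 1.499 ± 0.38 in KO but averaged at most 1.73 CPM, and Cxcr5 rose by 2.31 ± 0.45 in WT and 1.25 ± 0.43 in KO from means under 1 CPM. The Ccr10 call was lost in 6 of 19 alternative settings in WT and 0 of 20 in KO, and the Cxcr5 call in 2 of 19 and 10 of 20.

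The 1 gene of these lists called between untreated genotypes was P2ry2, an ATP receptor, which was higher in KO by 1.66 ± 0.25 on the log2 scale (44.6 ± 6.49 against 14.1 ± 0.963 CPM, SD, n = 5, adjusted p = 0.00238 by edgeR). P2ry2 lies at chr7:100996568-101012866, on the chromosome that also carries Arntl, so an effect of the allele's flanking DNA and one of Bmal1 loss cannot be told apart. C5ar1, also on chromosome 7, did not show such a difference (0.12 ± 0.24, adjusted p = 1.00 by edgeR). It lies far from P2ry2, at chr7:16246743-16259540, so its value cannot address that question.

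Among 29 tested signalling genes, 2 rose and 4 fell in KO after IMQ, and 0 were called in WT. Over all genes 14.4% were called higher and 9.04% lower in KO, and 3.95% were called in WT. Arrb1, a beta-arrestin that uncouples these receptors, fell by 0.76 ± 0.20 on the log2 scale (adjusted p = 0.0140), and Rgs2, which shortens G protein signals, fell by 1.30 ± 0.34 (adjusted p = 0.0145 by edgeR). Gng2, a G gamma subunit, and Prex1, a Rac exchange factor driven by G beta-gamma, had log2 fold changes of -0.74 ± 0.26 and -0.60 ± 0.21, while Gnb1 (0.22 ± 0.08) and the receptor kinase gene Grk6 (0.40 ± 0.14) rose. Those last 4 calls were each lost in 11 or 12 of 21 alternative settings. In WT, Gnb1 and Grk6 changed about as much as in KO (0.24 ± 0.08 and 0.48 ± 0.14, adjusted p = 0.0782 and 0.0609 by edgeR). Gng2, Prex1, Arrb1 and Rgs2 were at -0.29, 0.00096, -0.20 and -0.82 in WT. The interaction called 0 of all genes, so a call in KO and not in WT does not show a difference between genotypes. Of 15 genes for marrow retention and its regulation, 3 rose and 1 fell in KO and 0 were called in WT, beside the same shares. Csf3r, the G-CSF receptor, averaged 2853 ± 269 CPM untreated and 1100 ± 617 CPM after IMQ (SD, n = 5), and its log2 level fell by 1.38 ± 0.40 (SE, adjusted p = 0.0223 by edgeR). Cd47 rose by 0.41 ± 0.11 and Itgb1, the integrin beta-1 chain, by 0.58 ± 0.17. Among these, the calls of Csf3r, Cd47 and Itgb1 were lost in 3, 0 and 4 of 21 alternative settings. Irf8, a factor of the monocyte lineage, rose by 1.62 ± 0.55, a call that turned to -0.21 without KO IMQ 1 and KO IMQ 2, the libraries with the highest monocyte sums. In WT, Cd47 rose about as much as in KO (0.39 ± 0.11, adjusted p = 0.0561 by edgeR). Csf3r, Itgb1 and Irf8 were at -0.58 ± 0.40, 0.28 ± 0.17 and 0.14 ± 0.54 in WT.

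Other cell type markers also differed between groups. Calls here stand beside 23.5% of all genes called in KO after IMQ, 3.95% in WT and 0.292% between IMQ-treated genotypes. The summed level of 7 eosinophil genes was 34.0, 41.9, 21.4, 35.5 and 40.5 CPM in WT IMQ and 91.5, 119, 205, 42.8 and 194 CPM in KO IMQ, against 37.6 to 119 CPM in untreated WT and 48.3 to 138 CPM in untreated KO. The IMQ-treated genotypes were separate, in the comparison where all 8 receptors were below 0. Of the 7 genes, Prg2 (2.54 ± 0.50, SE, adjusted p = 0.0268) and Epx (2.97 ± 0.62, SE, adjusted p = 0.0439), both granule proteins of eosinophils, were called higher in KO by edgeR, Prg2 was called lower in WT after IMQ, and Siglecf was called lower in KO after IMQ. The erythroid sum was highest in WT IMQ 3 (694 CPM), KO IMQ 5 (568) and WT IMQ 4 (560), against 27.3 to 304 CPM elsewhere. WT IMQ 3 and KO IMQ 5 are among the libraries with low receptor levels, but WT IMQ 4 had the highest Cxcr2 (1995 CPM). KO IMQ 1, the lowest in Cxcr2, had an erythroid sum of 112 CPM. Alas2, of heme synthesis, was called higher in WT after IMQ, and 4 globin genes were listed at 0 in all 20 libraries.

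The remaining lists were lower in level. The B lineage sum was at or below 25.7 CPM and the T and NK sum at or below 25.6 CPM, and in KO after IMQ Cd79a, Vpreb3 and Cd3d were called lower (log2 fold changes of -1.12, -3.12 and -1.49, adjusted p = 0.0334, 0.0148 and 0.0145 by edgeR). The macrophage sum lay between 37.6 and 100 CPM, and Axl was called higher in the same comparison. The basophil and mast cell sum of 402 to 1550 CPM came nearly all from Hdc, which averaged 1111 CPM and which neutrophils also express, and Ms4a2, at a mean of 1.05 CPM, was called higher in KO after IMQ. The part of these cell types in the receptor levels was not tested.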

How the data were processed

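Bone marrow neutrophil RNA from 20 mice was measured, 5 libraries in each of 4 groups assigned from the sample titles. The deposited values were whole-number counts of reads per gene, 1 file per library. The submitters' processing notes name mm10, STAR 2.7.8a and HTSeq 2.0.1, whereas the study's methods describe TopHat on 1 read of each pair and Partek software, and the files do not settle which applied to them. The strand setting and the annotation used for counting are not given in the sources used here, and neither is the sequencer of each library, so no batch could be examined. Rows for reads on no gene, ambiguous reads and multiply aligned reads were left out: 51.85 to 57.79% of reads fell on no feature. A table of the whole series was not used because it joins the same counts. No table held columns without a sample.

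Counts were analysed with edgeR 4.0.16 in R 4.3.3 (TMM factors, filterByExpr, quasi-likelihood F test, 1 coefficient per group, 5 contrasts, Benjamini-Hochberg adjustment over 14030 genes, threshold 0.05), a method tested on simulated data. As an alternative, limma 3.58.1 was run on log2(RPKM + 0.1) made from these counts, which shares the study's transform but not its software or alignment. Other alternatives were DESeq2 1.42.0, RLE factors, library totals, no filter, at least 10 counts in every library, thinning to the smallest library, the compared groups alone, the replicate block, and leaving out libraries. RPKM used the merged exon length in GENCODE vM21, matched by symbol. Promoter windows for all 8 genes came from RefSeq. Same-numbered libraries were correlated across genes after subtracting group means, and r over 0.1 was counted as deviating together. This held in all 5 pairs of KO mice (r = 0.128 to 0.426) and in 4 of 5 pairs of WT mice (0.0728 to 0.384). Between genotypes it held in 2 of 5 pairs of either comparison. There r ran from -0.441 to 0.206 in untreated mice and from -0.497 to 0.343 after IMQ. The main fit treated no comparison as paired, and the replicate block was run as an alternative in all 5 contrasts. Any sign of pairing comes from the data and was mixed in sign between genotypes, and no label says what a number marks. Libraries are from separate samples by their titles, and where they do not come from separate animals p-values measure only the spread between samples.

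Besides the 8 receptors, partner genes were named if called in any contrast (at most 6 per list, by smallest p), along with the 3 genes of highest correlation with each receptor. The receptors and lists were chosen with earlier results of these data known. A few genes of the lists and of the closest correlations are not reported here.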

Additional observations from a re-analysis of the deposited data

How the results depend on the processing

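The count of receptors called in IMQ-treated against untreated KO, 2 as reported, was 4 with DESeq2, 1 with RLE factors, 5 with library totals only, 0 without a filter, 5 with limma on log2(RPKM + 0.1) and 1 (Ltb4r1, higher) without KO IMQ 1 and KO IMQ 2, an alternative chosen after seeing the data, and 0 to 5 when 1 library was left out. Leaving out a library also lowered the number of libraries fitted, and the cause of the other shifts was not tested. Library totals moved the median gene from 0.02 to 0.16 on the log2 scale in that comparison, from 0.03 to 0.23 between IMQ-treated genotypes and from 0.01 to 0.20 in the interaction, so the receptors' changes there are to be read against those shifts. The replicate block gave 3 called receptors in that comparison and changed no other receptor count. Between IMQ-treated genotypes the count was 0 under the alternatives with all libraries and 0 to 3 with 1 library left out, where WT IMQ 3 gave the 3. Over all genes, the calls between IMQ-treated genotypes went from 41 to 313 with DESeq2, 16 with only the 2 groups compared and 20 to 3129 with 1 library left out. For IMQ in WT they went from 554 to 1480 with DESeq2, 326 without a filter, 186 with only the 2 groups compared, 190 with the replicate block, 2129 without WT IMQ 5 and KO IMQ 2, and 48 to 1989 with 1 library left out. For untreated genotypes they went from 29 to 59 with only the 2 groups compared, and for IMQ in KO from 3292 to between 1612 and 4037 with 1 library left out. The receptor counts for untreated genotypes, for IMQ in WT and for the interaction stayed at 0 under all alternatives run.

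Some log2 fold changes turned sign. In WT after IMQ, Fpr1 was at -0.057 with library totals, -0.14 with limma and -0.063 without WT IMQ 5 and KO IMQ 2, and C5ar1 at -0.032 with library totals and -0.057 with limma. With 1 library left out the ranges were -0.30 to 0.12 for Cxcr2, -0.16 to 0.087 for Ccr1, -0.12 to 0.25 for Fpr1 and -0.069 to 0.21 for C5ar1. In KO after IMQ, Fpr2 was at 0.0057 with library totals, 0.15 without KO IMQ 1 and KO IMQ 2, and -0.17 to 0.14 with 1 library left out. Without KO IMQ 1 and KO IMQ 2, Ltb4r1 between IMQ-treated genotypes was at 0.059 and Irf8 in KO at -0.21. The Ltb4r1 interaction ran from -0.27 to 0.0081 with 1 library left out. The mean log2 ratio of Cxcr2 to Cxcr4 in KO IMQ ran from 1.12 to 1.52 with 1 library left out. Called partners numbered 6 to 11 among other receptors, 3 to 11 among ligands, 2 to 11 among signalling genes and 1 to 5 among retention genes in KO after IMQ, and 0 to 6, 0 to 8, 0 to 3 and 0 to 1 in WT.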
